A study of Triticum aestivum with 4 samples.

Results

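The thionins of the wheat grain measured here were 3 purothionin genes, THI1.1, THI1.2 and THI1.3 (LOC543413), and the type V thionin gene TTHV. They are 4 of the 771 genes listed for the array, and they were chosen by gene name, with 5 purothionin probe sets and 1 TTHV probe set out of 61179 tested. They were picked with the difference between the genotypes already known, so that difference is given below as a description and supports nothing by itself. Developing seed of bread wheat (Triticum aestivum) was taken 5 days after anthesis, the opening of the flower, from plants of Domain and of RL4452, parent genotypes of a mapping population, grown in the field. Each entry was a 1.47 m row, replicated 3 times in a lattice, and neither genotype carried a treatment. Enriched messenger RNA from whole seed was hybridised to 4 Affymetrix wheat arrays, 2 per genotype, labelled as biological replicates 1 and 3. Whether the replicates came from separate field plots is not stated, so the spread between them may be partly technical.

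Purothionins are small, basic, cysteine-rich peptides that accumulate in the starchy endosperm of the wheat grain, the tissue that stores protein and starch. They are made as longer precursors, from which a signal peptide and an acidic tail are removed, and the mature peptides damage the membranes of fungi and bacteria. Type V thionins are a divergent class of the same family, described from wheat endosperm. Bread wheat is hexaploid and carries near-identical purothionin copies on its related chromosomes. In NCBI's gene list for the wheat assembly IWGSC CS RefSeq v2.1 the 3 purothionin genes lie on 3 different chromosomes. TTHV lies on the same chromosome as THI1.2, with 0 listed genes between them. The table gives the older name Pur-A1 to THI1.3, Pur-B1 and Pur-D1 to THI1.1, and Pur-B1 again to THI1.2, so a probe set is named here by the gene listed for it and not by its genome copy.

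Each value is the ratio of an array to the median of that probe set over all 4 arrays. Such ratios keep the differences between arrays but not the level of one gene against another, so it cannot be said which thionin was the most abundant. Nor can the seed label be checked against levels of endosperm markers. By construction, no more than 2 arrays of a probe set lie above its median and no more than 2 below it. A difference below is the RL4452 mean minus the Domain mean of log2 ratios, with the standard error (SE) of the limma fit over all probe sets (2 arrays per genotype).

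THI1.1 (gene 543305) was measured by 2 probe sets, with the name endings s_at and x_at, which mark probes that also match other transcripts. For the s_at probe set the Domain ratios were 1.28 (replicate 1) and 3.32 (replicate 3), and the RL4452 ratios were 0.161 (replicate 1) and 0.723 (replicate 3). For the x_at probe set they were, in the same order, 1.23 and 3.73, then 0.323 and 0.766. In both, Domain replicate 3 was the highest array, RL4452 replicate 1 the lowest, and the genotypes did not overlap. The s_at probe set had log2 means of 1.04 ± 0.97 for Domain and -1.55 ± 1.53 for RL4452 (SD, n = 2), a difference of -2.59 with SE 0.83. The x_at probe set had 1.10 ± 1.13 and -1.01 ± 0.88 (SD, n = 2), a difference of -2.11 with SE 0.66. The geometric mean was thus 6.03-fold and 4.31-fold higher in Domain, with replicates of a genotype lying far apart.

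THI1.3 (gene 543413) was also measured by 2 probe sets, 1 with the plain ending at and 1 with x_at. For the plain probe set the Domain ratios were 1.25 (replicate 1) and 3.20 (replicate 3), and the RL4452 ratios were 0.599 (replicate 1) and 0.752 (replicate 3). For the x_at probe set they were, in the same order, 1.15 and 3.45, then 0.593 and 0.848. Again Domain replicate 3 stood apart above the other 3 arrays, and the genotypes did not overlap. The plain probe set had log2 means of 1.00 ± 0.96 for Domain and -0.58 ± 0.23 for RL4452 (SD, n = 2), a difference of -1.57 with SE 0.47. The difference of the x_at probe set was -1.49 with SE 0.55. On this gene Domain was 2.98-fold and 2.81-fold higher, and the RL4452 arrays were closer to each other than on THI1.1.

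THI1.2 (gene 543304), with 1 probe set of the plain kind, had the smallest range of the purothionins. Its Domain ratios were 1.08 (replicate 1) and 1.72 (replicate 3), and its RL4452 ratios 0.800 (replicate 1) and 0.919 (replicate 3). The order of the arrays was that of the other purothionins, over a narrower span. Its log2 means were 0.45 ± 0.48 for Domain and -0.22 ± 0.14 for RL4452 (SD, n = 2), a difference of -0.67 with SE 0.28, which is 1.59-fold.

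TTHV (gene 543295), also with 1 plain probe set, had Domain ratios of 1.04 (replicate 1) and 0.962 (replicate 3) and RL4452 ratios of 0.841 (replicate 1) and 1.14 (replicate 3). Its highest and lowest arrays were both RL4452, and the genotypes overlapped. Its log2 means were -0.0010 ± 0.08 for Domain and -0.03 ± 0.31 for RL4452 (SD, n = 2), a difference of -0.03 with SE 0.22. Its range over the 4 arrays was 0.44 on the log2 scale, and 58.2% of all tested probe sets had a range at least as wide. The corresponding shares were 0.198% and 0.378% for the s_at and x_at probe sets of THI1.1, 1.33% and 1.13% for those of THI1.3, and 11.5% for THI1.2.

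**Figure D1:**
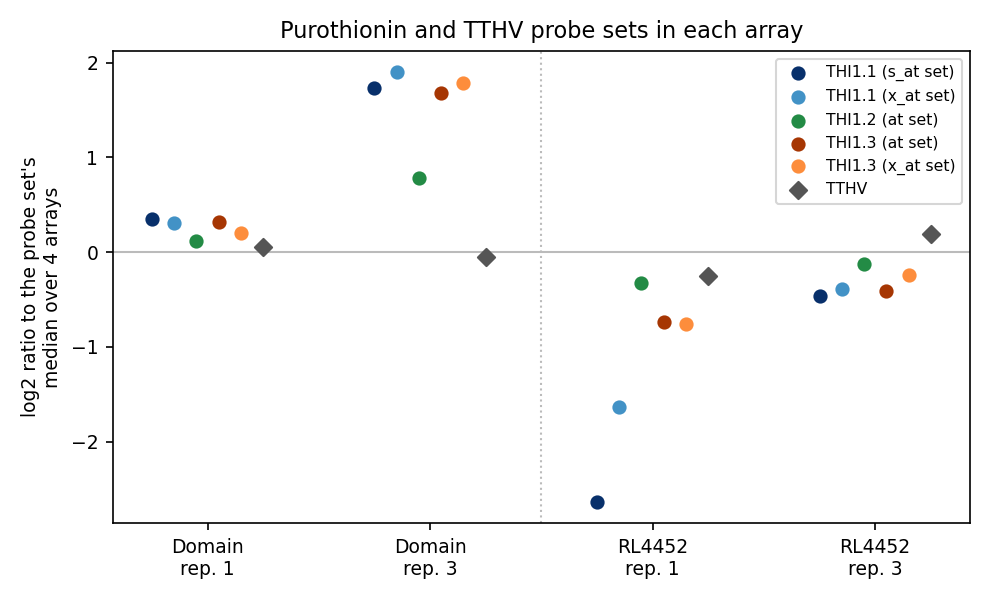
Log2 ratio of each thionin probe set to its own median (vertical axis) in each of the 4 arrays (horizontal axis), 1 point per probe set and array. The purothionin points lie between 0.78 and 1.90 in Domain replicate 3 and between -2.63 and -0.32 in RL4452 replicate 1, while TTHV stays between -0.25 and 0.19 in all 4 arrays.

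All 5 purothionin probe sets put the arrays in 1 order: Domain replicate 3, Domain replicate 1, RL4452 replicate 3, RL4452 replicate 1. That order held for 3.57% of all tested probe sets, and 15.5% had both arrays of Domain above both of RL4452. The 5 are not independent, since near-identical copies can share probes and all were read on the same arrays. The 5 differences had a median of -1.57, against 0.01 over all tested probe sets, where the median absolute difference was 0.17. None of the 6 thionin probe sets passed the limma test at a Benjamini-Hochberg adjusted p under 0.05, a threshold that 0.280% of all probe sets passed (0.150% lower in RL4452). At an unadjusted p under 0.05, 4 of the 6 were lower in RL4452 in limma, as were 3.36% of all probe sets. Because this contrast was used to choose the genes, nothing is read from these counts.

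**Figure D2:**
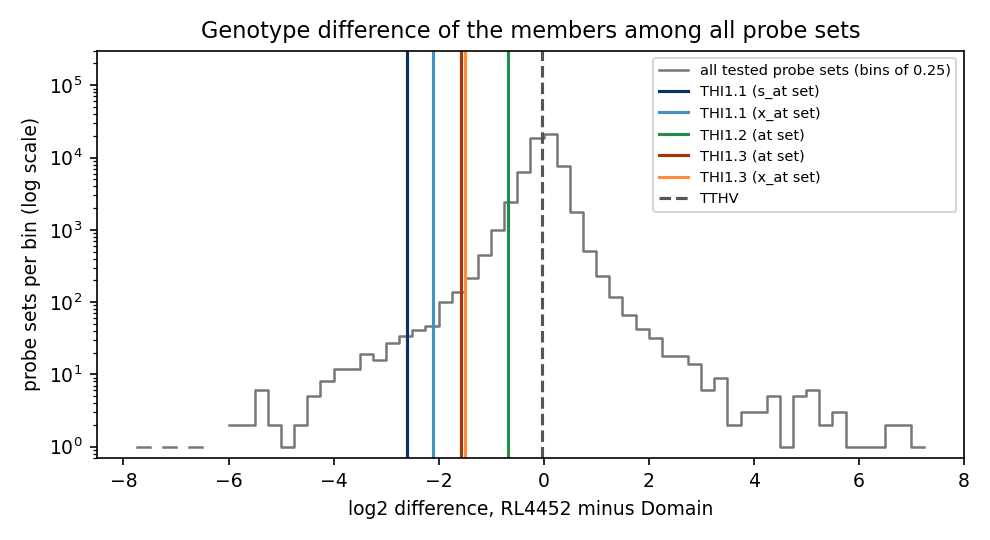
Number of tested probe sets (vertical axis, log scale) by log2 difference between the genotypes, RL4452 minus Domain (horizontal axis, bins of 0.25), with a vertical line for each thionin probe set. The THI1.1 lines at -2.59 and -2.11 stand in the lower tail, those of THI1.3 at -1.57 and -1.49 nearer the bulk, THI1.2 at -0.67 on its shoulder and TTHV at -0.03 in its centre.

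Across the purothionin probe sets the spread within Domain exceeded the gap between the genotypes. Domain replicate 3 was above Domain replicate 1 by 0.67 to 1.60 on the log2 scale, which is 1.59-fold to 3.02-fold. The lower Domain array was above the higher RL4452 array by 0.23 to 0.82, which is 1.18-fold to 1.77-fold. In all 5 probe sets the first distance was the larger. Domain replicate 1 and RL4452 replicate 3, neighbours in the order, were thus closer than the 2 Domain arrays were to each other. In TTHV the Domain replicates differed by -0.11 (replicate 3 minus 1) and the RL4452 replicates by 0.44.

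The purothionins also differed among themselves, mainly in RL4452 replicate 1. The probe sets of THI1.1 were within 0.17 of each other on the log2 scale in 3 arrays but 1.00 apart in RL4452 replicate 1, where the s_at probe set was at -2.63 and the x_at probe set at -1.63. The probe sets of THI1.3 stayed within 0.17 of each other in all 4 arrays. Between the RL4452 replicates, the distance (replicate 3 minus 1) was 2.17 and 1.25 for THI1.1, 0.33 and 0.52 for THI1.3 and 0.20 for THI1.2. With each probe set's own range set to 100%, Domain replicate 1 stood at 68.4% and 54.8% in the THI1.1 probe sets, 43.8% and 37.7% in those of THI1.3, and 39.2% in THI1.2. For THI1.3 and THI1.2 most of the range was therefore the step up to Domain replicate 3. For the s_at probe set of THI1.1 the step down to RL4452 replicate 1 took the larger share, with RL4452 replicate 3 at 49.6% of the range.

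The purothionins were then set against TTHV within each array, a comparison that an equal shift of all log2 values of an array leaves as it is. The ratios do not show whether TTHV lay above background, and a probe set at background need not follow such a shift. The mean of the 5 purothionin probe sets minus TTHV was 0.20 in Domain replicate 1, 1.63 in Domain replicate 3, -0.97 in RL4452 replicate 1 and -0.51 in RL4452 replicate 3. Both Domain arrays were above 0 and both RL4452 arrays below it. Nothing is read from these signs. Each probe set is scaled to its own median, so without overlap the purothionin part is positive in Domain and negative in RL4452 by construction. The means of this contrast were 0.92 ± 1.01 for Domain and -0.74 ± 0.32 for RL4452 (SD, n = 2), a difference of -1.66 with SE 0.75 over the arrays. The purothionin mean alone differed by -1.69 with SE 0.80, so subtracting TTHV moved it by less than its SE. No test is given, and an exact permutation of 2 against 2 arrays could not pass 0.05. THI1.2 and TTHV, neighbours in the gene list, had differences of -0.67 and -0.03. With only the 2 purothionin probe sets of the plain kind, which leaves out THI1.1 altogether, the mean difference was -1.12. In THI1.3, the only purothionin gene with both kinds, the plain probe set had -1.57 and the x_at probe set -1.49. In THI1.1, whose probe sets also differ only in the name ending, s_at had -2.59 and x_at -2.11.

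Leaving out an array changed the size of the purothionin difference but not its sign. With Domain replicate 1 left out the mean of the 5 was -2.35, and with Domain replicate 3 left out it was -1.03. With RL4452 replicate 1 left out it was -1.24, and with RL4452 replicate 3 left out it was -2.13. Since the genotypes do not overlap in these probe sets, the sign could not turn in such a step. For the s_at probe set of THI1.1 the difference ran from -3.68 without RL4452 replicate 3 to -1.51 without RL4452 replicate 1. Without Domain replicate 3 it was -0.89 and -0.70 for the THI1.3 probe sets, and -0.33 for THI1.2. TTHV changed sign, from -0.25 without RL4452 replicate 3 to 0.19 without RL4452 replicate 1.

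**Figure D3:**
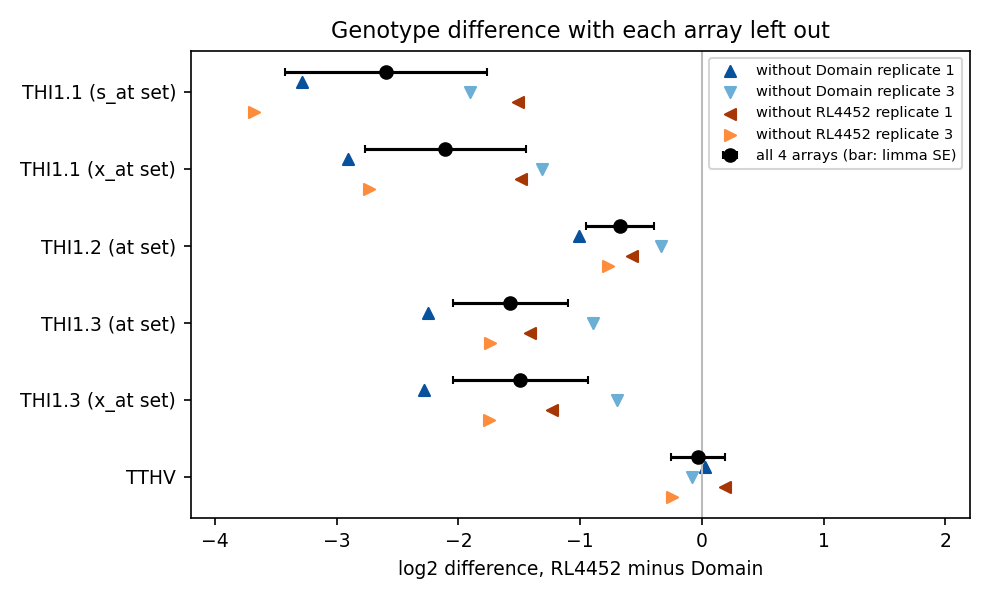
Log2 difference between the genotypes, RL4452 minus Domain (horizontal axis), for each thionin probe set with all 4 arrays (black circles, bars of 1 limma SE) and with each array left out in turn (triangles). Among the values of each THI1.3 probe set, the one nearest 0 is that without Domain replicate 3, at -0.89 and -0.70. The TTHV values lie on both sides of 0.

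Several facts of the arrays run alongside these values. Per the file headers, Domain replicate 3 and RL4452 replicate 1, the highest and lowest arrays of every purothionin probe set, shared a fluidics module, and the others each had one of their own. Between those 2 arrays the purothionin mean differed by -2.79 and TTHV by -0.19. Over all probe sets the SD of the log2 difference was 0.457 for the pair of Domain arrays, 0.499 for the RL4452 pair and 0.509 to 0.618 for the 4 pairs that mix genotypes. The scaled median absolute deviation, a measure less open to outlying values, gave another order, with 0.344 for the Domain pair, 0.347 for the RL4452 pair and 0.308 to 0.413 for the mixed pairs. The 3' minus 5' difference of log2 ratios, which bears on RNA integrity, was taken for 7 pairs of probe sets on wheat control transcripts. Its median was 0.40 in RL4452 replicate 3, -0.22 in RL4452 replicate 1, 0 in Domain replicate 1 and -0.0023 in Domain replicate 3. Each probe set is scaled to its own median over the 4 arrays. These values therefore compare arrays and do not say whether the RNA of any array was intact. The part of module or RNA integrity in the thionin values was not tested.

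Other defence and inhibitor proteins of the grain were taken from lists of gene names. Outside the thionins these held 13 probe sets of 9 genes, with a median difference of -0.09, with RL4452 below Domain in 7 and above it in 6. In neither direction did any pass the limma test (0.280% of all probe sets did), while 5 had an unadjusted p under 0.05, against 5.85% of all probe sets. These 5 were the amylase and trypsin inhibitors. No probe set was matched for defensins or puroindolines. The 5 probe sets of amylase and trypsin inhibitors, which block digestive enzymes of insects and mammals, were all lower in RL4452, with a median of -2.57 and a range from -2.96 (LOC543281) to -1.37 (LOC542981). All 5 had the array order of the purothionins, as did 3.57% of all tested probe sets. They come from 3 genes and were read on the same arrays, so they are not independent. Their medians were 0.49 in Domain replicate 1, 1.51 in Domain replicate 3, -2.05 in RL4452 replicate 1 and -0.75 in RL4452 replicate 3. The purothionin medians in these 4 arrays, in this order, were 0.30, 1.73, -0.75 and -0.38.

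The remaining defence lists had smaller median differences. The 3 listed serpins, inhibitors of serine proteases, ran from -0.34 (LOC543382), which had the array order of the purothionins, to 0.10 (LOC542985). A further serpin gene, WSZ1b (LOC100037548), which the name pattern of the list had not matched, had -0.84 in the probe set nearest to the purothionins. The 2 probe sets of LTP3 (LOC543095), a lipid transfer protein, had 0.23 and 0.28. Those of the xylanase inhibitor gene XIP-I (LOC542997), which acts on fungal xylanases, had 0.39 and 0.44. PR5 (LOC543292), of the thaumatin-like pathogenesis-related proteins, had 0.44. None of these LTP3, XIP-I and PR5 probe sets had the array order of the purothionins.

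Markers of the starchy endosperm bear on the same tissue. The 11 probe sets of 6 gliadin and low-molecular-weight glutenin genes, the storage proteins of dough, had a median difference of -0.24. They ran from -2.72 (LOC543214) to 0.20 (LOC543213). Of the 11, 10 were lower in RL4452, as were 48.0% of all tested probe sets. Both Domain arrays were the higher in 3 (15.5% of all), and 2 had the array order of the purothionins (3.57% of all). None passed the limma test (0.280% of all), and 0 had an unadjusted p under 0.05 (5.85% of all). Over the 4 arrays, in the same order, their medians were -0.01, 0.50, -0.01 and -0.03. In Domain replicate 3 they ran from -0.04 to 4.05, the top value being a gamma-gliadin probe set of LOC543214. Without Domain replicate 3 the median difference of the list was 0.0021. The name pattern of the list had not matched the avenin-like storage protein genes LOC100125692 and avnla (LOC780582). Their probe sets nearest to the purothionins, picked for that likeness, had differences of -1.41 and -2.02. The Waxy gene Wx-A1 (LOC543395), whose starch synthase makes the amylose of the endosperm, was higher in RL4452, at -1.28 and -2.00 in Domain and 0.82 and 0.67 in RL4452. The other listed starch gene, AGP-S (LOC543299), a subunit of the enzyme that makes the sugar donor of starch, was lower in RL4452, at 0.34 and 0.14 in Domain and -0.16 and -0.67 in RL4452. Both starch genes, which differed in opposite directions, had an unadjusted p under 0.05 (5.85% of all), and neither passed the limma test (0.280% of all). In whole seed, fewer endosperm cells and less RNA per cell cannot be told apart, and the part of seed composition in the thionin values was not tested.

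Markers of other seed tissues had small median differences, with members on both sides of 0 in each list. These were 0.02 over 33 probe sets of photosynthesis genes, most of them rbcL, -0.05 over 7 of embryo and dehydration proteins, 0.11 over 19 of histones and tubulins, and -0.11 over 6 of raftins and profilins, which are known from anthers and pollen. Among histones and tubulins, the 4 probe sets of the beta-tubulin gene Tubb5 (LOC543261) ran from -0.56 to -0.35. All 4 had the array order of the purothionins, as did 3.57% of all tested probe sets. All 9 histone H2A probe sets were higher in RL4452, from 0.03 (SE 0.19) to 0.55 (SE 0.32), while 48.0% of all tested probe sets were lower. Several H2A probe sets belong to the same gene, as do those of Tubb5, so they are not independent. None of the 65 probe sets of these 4 lists passed the limma test, as 0.280% of all probe sets did. An unadjusted p under 0.05, found for 5.85% of all probe sets, was found for 3 of them, all lower in RL4452 (2 of Tubb5 and 1 of rbcL).

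**Figure D4:**
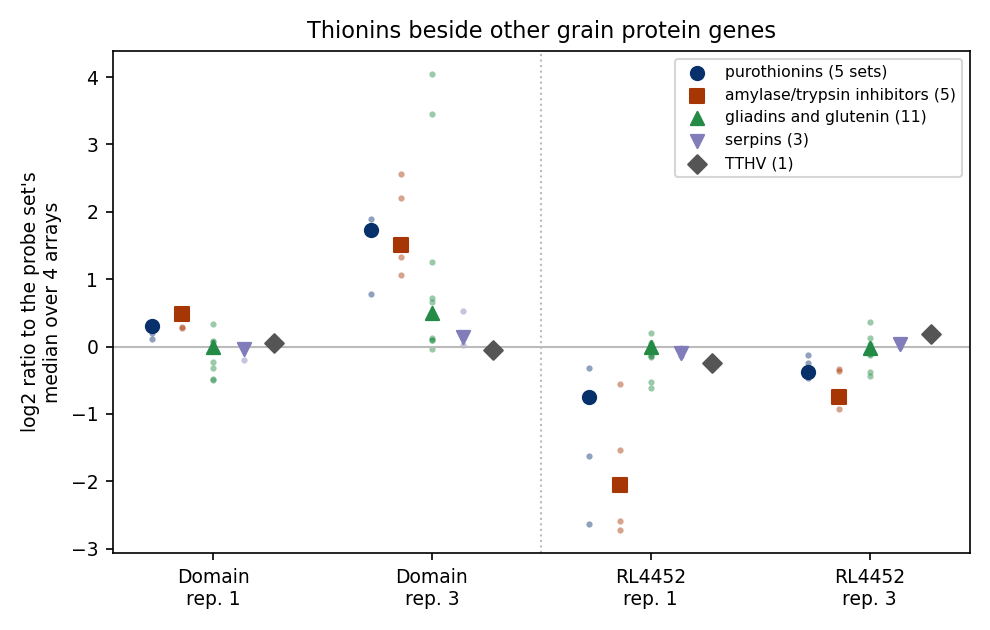
Log2 ratio to the probe set's own median (vertical axis) in each array (horizontal axis) for the purothionins, TTHV and 3 lists of grain proteins, with small points for probe sets and large symbols for the median of each list. Purothionins and amylase/trypsin inhibitors are highest in Domain replicate 3 (medians 1.73 and 1.51) and lowest in RL4452 replicate 1 (-0.75 and -2.05), while storage protein, serpin and TTHV medians stay between -0.25 and 0.50.

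The genes with readable names whose pattern was nearest to the purothionin mean were found by the root mean square (RMS) difference of centred log2 values over the 4 arrays, among 98 genes. The nearest was the monomeric amylase inhibitor WMAI-1 (LOC542981), at an RMS difference of 0.30. The avenin-like gene LOC100125692 also had 0.30, the amylase and trypsin inhibitor gene LOC543286 had 0.34, and the avenin-like gene avnla (LOC780582) had 0.44. The fifth was the serpin gene WSZ1b (LOC100037548), at 0.54. WMAI-1 stood at 0.29, 1.51, -0.56 and -0.37 in the 4 arrays, again in that order. All 5 were highest in Domain replicate 3, which the choice by pattern made likely, since the purothionin mean is highest there. Over all tested probe sets, most of them without a listed gene, 23 were nearer to the purothionin mean than WMAI-1 was.

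Nearest to TTHV were the histone gene H2A-3 (LOC732713) at an RMS difference of 0.08, a probe set of the plastid gene rbcL (LOC100049018) at 0.08, the alpha-type gliadin gene LOC543212 at 0.10, LOC543050 at 0.10 and the histone gene wcH2B-8 (LOC543184) at 0.11. TTHV varied little, and 1216 of all tested probe sets were nearer to it than H2A-3 was, so these names single out little.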

How the data were processed

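The deposited table holds linear ratios for 61290 features. Per the submitters' processing notes the tool was RMA. Its version, and the step by which the authors turned RMA values into ratios, are not given in these sources. The median of a feature over the 4 arrays was within 0.002 of 1 for 99.5% of features. The 111 control features were left out, and log2 ratios of the other 61179 probe sets were fitted with limma 3.58.1 in R 4.3.3 (lmFit, eBayes, genotype as the only term, two-sided, Benjamini-Hochberg over all probe sets), after the fit was tested on simulated data. Tables and figures used Python 3.11.15, pandas 2.3.3, numpy 2.4.6 and matplotlib 3.10.9. The number of arrays limits the precision. No signal over background could be computed.

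Probe sets took their gene from GEO's platform annotation, with symbols brought up to date by gene ID from NCBI's list for IWGSC CS RefSeq v2.1 (its coordinates served only to see which genes are neighbours). A gene was listed for 1273 features, and a readable symbol or synonym for 200 probe sets of 102 genes. The members and lists were chosen with earlier results of these data known. Named genes were the 6 thionin probe sets, the 5 genes of nearest pattern to the purothionin mean and to TTHV, and the extremes of each list matched on symbols and synonyms, with others named as examples after their values were seen. Alternatives were quantile normalization, median-centred arrays, a replicate block, a robust prior and each array left out. For the purothionins, only the probe sets with the plain name ending, and 1 value per gene, were also used. Whether the plain probe sets share probes between copies could not be computed. The comparison within a fluidics module was added after seeing the data.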

Additional observations from a re-analysis of the deposited data

How the results depend on the processing

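No label says that a replicate number pairs arrays. Across probe sets, replicate 3 minus replicate 1 in Domain had a correlation of 0.143 with that in RL4452. The replicate block took the limma calls from 171 to 0 (4555 had an unadjusted p under 0.05). It leaves each difference as it was by construction (-1.69 for the purothionin mean). Leaving out an array gave 0 to 128 limma calls: 0 if it was Domain replicate 1 (3292 had an unadjusted p under 0.05) or Domain replicate 3 (3418), 101 if RL4452 replicate 1 and 128 if RL4452 replicate 3. The single array left for a genotype takes its spread from the other pair. No thionin probe set passed in any of these fits. After quantile normalization the purothionin mean difference was -1.64, with median-centred arrays -1.70 and with 1 value per gene -1.52. Over arrays left out it ran from -2.35 to -1.03, and that of the purothionin minus TTHV contrast from -2.37 to -0.94. Within the fluidics module that holds both genotypes (1 array each, no test) these were -2.79 and -2.60. TTHV was -0.08 after quantile normalization and 0.02 without Domain replicate 1. A filter on dim probes and another background correction were not possible on ratios.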
